A study of Mus musculus with 26 samples.

Results

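In mouse embryonic stem cells (ESCs) that lack both DPPA2 and DPPA4, 683 regions of total H3K4me3 lost signal at places outside the bivalent regions listed for the clones. They are 683 of the 31935 regions in the table of total H3K4me3 regions of the wild type (WT) clones, or 2.14%. A region was chosen by 2 criteria. It overlapped no region of the 4 tables of bivalent regions of the WT and double knockout (DKO) clones, each of which lists 1 reChIP order in 1 genotype. The lower of its total H3K4me3 values in the 2 WT clones also exceeded the higher of its values in the 2 DKO clones by 1 or more on the log2 scale. That difference is called the gap below. The first criterion left 8018 regions, of which the members are 8.52%, and the second was met by 2147 regions of the whole table (6.72%), 1464 of them inside reChIP regions. The members were therefore selected on total H3K4me3, and their difference in that mark is a description and not a result. For reference, limma called total H3K4me3 lower in DKO at 2.60% of all regions, a count taken from the contrast the rule used, from which nothing is read here.

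The study used ChIP-reChIP, in which chromatin recovered with a first antibody is precipitated again with a second, to keep in theory only fragments carrying both marks. The study states that signal of the first precipitation can carry through into the second, and asks for both orders. In its qPCR control, cells depleted of H3K27me3 lost the reChIP signal in both orders at the bivalent loci assayed. The K4-K27 reChIP took H3K4me3 first and H3K27me3 second, the K27-K4 reChIP took them in the reverse order, and a part of each first precipitate was set aside and sequenced as in-line total H3K4me3 or total H3K27me3. The clones were the WT clones 57 and 58 and the Dppa2/4 DKO clones 43 and 53, derived from E14 ESCs and grown feeder-free in serum and LIF, and each clone gave 1 library per ChIP from MNase-digested chromatin. Parental E14 ESCs under the same conditions were profiled separately in 2 replicates, and an IgG-IgG control of the clones came from WT clone 57 only. Each clone is 1 clonal line sequenced once per ChIP, so the tests below measure the spread between 2 clones on each side. With a clone left out, 1 clone remains on that side and the spread comes from the other genotype alone. Calls kept in such fits are therefore not taken as support. The H3K4me3 antibody is described in the study's methods as also recognising H3K4me2.

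H3K4me3 is laid down by the SET1 and MLL methyltransferase complexes, mostly at active and CpG-rich promoters, and H3K27me3 is laid down by Polycomb repressive complex 2. Promoters that carry both are called bivalent and are known in ESCs for genes of later development. DPPA2 and DPPA4 are small chromatin proteins with SAP domains that form a heterodimer, are expressed in early embryos and ESCs, and are known as epigenetic priming factors that keep a subset of bivalent promoters marked and free of DNA methylation. Retrotransposons carry promoters of their own, which can also bear H3K4me3 in ESCs.

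The 17 clone libraries held between 9242970 and 33848176 reads. Values are log2 RPM per kb, reads scaled to library depth and region length, and every value corresponded to a whole number of reads (100% within 0.05 of a read), with 0 reads entered as 0.9 of a read. The start-site regions of the pluripotency genes Pou5f1, Nanog and Sox2 carried total H3K4me3 in all 4 clones. At Nanog the level was 2.59 and 1.38 in WT clones 57 and 58 and 2.55 and 1.97 in DKO clones 43 and 53. The regions at the Dppa2 and Dppa4 start sites were also marked in the DKO clones, at 2.08 and 1.34 for Dppa2 and 2.39 and 1.56 for Dppa4, which does not check the knockout, since a promoter mark does not report on the deleted coding sequence. WT clone 57 lay above clone 58 over the whole table, with medians of 1.88 and 0.96, against 1.59 and 1.24 in the DKO clones.

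The sequence that came back most often among the members is shown first, because it links regions on many chromosomes. A search for the 20-letter string present in the most members, made after the data had been seen, found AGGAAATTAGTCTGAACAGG in 90 of them (13.2%), and it was in 0.218% of the other regions outside reChIP regions. It occurs 8135 times in the 21 mouse chromosomes scanned, counting both strands. In mm10 (GRCm38) the 80-base windows around it in 6 members of large gap read as follows, with the shared string in capitals and each window written on the strand that carries it.
Dpy19l1, chr9:24328380-24328459, minus strand: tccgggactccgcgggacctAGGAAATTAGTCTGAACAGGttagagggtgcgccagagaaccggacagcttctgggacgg
Lurap1l, chr4:81149774-81149853, minus strand: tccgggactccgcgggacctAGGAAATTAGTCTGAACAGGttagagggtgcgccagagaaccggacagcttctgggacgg
Tlr4, chr4:66775529-66775608, plus strand: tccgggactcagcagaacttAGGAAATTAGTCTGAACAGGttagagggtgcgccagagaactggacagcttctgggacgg
Tanc2, chr11:105711674-105711753, minus strand: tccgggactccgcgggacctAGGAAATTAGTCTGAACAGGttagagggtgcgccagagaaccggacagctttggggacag
Sytl5, chrX:9965981-9966060, plus strand: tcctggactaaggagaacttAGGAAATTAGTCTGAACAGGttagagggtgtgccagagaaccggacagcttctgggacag
Nup35, chr2:80832778-80832857, minus strand: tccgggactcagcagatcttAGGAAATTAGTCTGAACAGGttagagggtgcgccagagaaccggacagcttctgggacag
The window nearest Lurap1l matched the one nearest Dpy19l1 at all 80 bases although they lie on different chromosomes, and the other 4 windows matched it at 71 to 77 bases. The windows are near-identical copies of a dispersed sequence, whose family is not named because no annotation of repeat families was used here. Only reads with a mapping quality over 20 were counted, so values at such copies rest on the reads that could be placed. How much of each copy could be measured was not tested.

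Whole members differ from each other in base content, so 3 of the smallest size, 300 bp, are printed from the same reference with every CG dinucleotide in capitals. The first is a repeat copy with a gap of 3.94, the next a region with no repeat-masked base and a gap of 2.11, and the last the promoter member of 300 bp with the largest gap.
Nearest to Npy5r, chr8:66603751-66604050, plus strand: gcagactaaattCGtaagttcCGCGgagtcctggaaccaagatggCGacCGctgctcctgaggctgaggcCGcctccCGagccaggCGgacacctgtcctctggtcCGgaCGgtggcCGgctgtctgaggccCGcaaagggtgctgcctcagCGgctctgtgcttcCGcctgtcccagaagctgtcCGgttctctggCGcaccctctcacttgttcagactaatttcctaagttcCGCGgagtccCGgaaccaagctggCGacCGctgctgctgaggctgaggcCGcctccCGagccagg
Low-repeat region on chromosome 10, chr10:35142301-35142600, plus strand: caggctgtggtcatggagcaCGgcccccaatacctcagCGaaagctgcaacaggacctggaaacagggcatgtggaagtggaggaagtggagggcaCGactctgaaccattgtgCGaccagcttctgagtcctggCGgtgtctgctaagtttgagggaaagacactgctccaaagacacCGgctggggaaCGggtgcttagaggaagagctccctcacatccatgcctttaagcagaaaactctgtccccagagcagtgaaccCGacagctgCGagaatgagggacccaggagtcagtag
Naalad2 promoter, chr9:18385651-18385950, plus strand: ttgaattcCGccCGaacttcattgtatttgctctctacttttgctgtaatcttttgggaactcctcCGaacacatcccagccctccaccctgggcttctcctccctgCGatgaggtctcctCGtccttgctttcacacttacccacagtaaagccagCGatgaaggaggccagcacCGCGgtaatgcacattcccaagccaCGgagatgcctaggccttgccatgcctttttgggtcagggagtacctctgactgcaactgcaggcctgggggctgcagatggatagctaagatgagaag
The region near Npy5r, a neuropeptide Y receptor gene, holds 23 CG dinucleotides and is 100% repeat-masked. The chromosome 10 region and the promoter of Naalad2, a glutamate carboxypeptidase gene, hold 9 each and neither has a repeat-masked base.

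The same search, repeated on the members that held no string yet, gave 3 further strings: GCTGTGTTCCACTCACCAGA in 61 members, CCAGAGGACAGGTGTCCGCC in 74 and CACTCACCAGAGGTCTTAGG in 59. At least 1 of the 4 strings was present in 184 members, or 26.9% (exact binomial 95% interval 23.7 to 30.4%, counting error only). Among the 7335 regions outside reChIP regions that did not meet the gap it was present in 43 (0.586%). Because the strings were found in the members, their share there is fixed by the search. The 1464 regions inside reChIP regions that met the gap took no part in it, and 195 of them (13.3%) held a string. Among all regions listed, 451 (1.41%) held one. Outside reChIP regions the rule fixes which of them met the gap. Inside, 195 of 224 regions with a string (87.1%) met it, where 6.12% of all 23917 regions inside did, a description on the scale the members were chosen by. The next string found was a plain ac dinucleotide repeat, present in 19 members but in 10.9% of all regions, and it was not used.

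The strings were also unevenly spread over the deposited tables of regions. The DKO total H3K4me3 table listed 6 regions with a string out of 33905 (0.0177%), against 451 of 31935 in WT. Of the 451, 184 are the members in which the strings were found and 267 are not. The clones' reChIP tables overlap no member, but the strings came from regions chosen for a higher WT value. In K4-K27, 196 such regions were listed in WT and 1 in DKO, and in K27-K4, 132 in WT and 2 in DKO. Total H3K27me3 tables held 5 in WT and 3 in DKO. Among the tables of E14 ESCs, libraries on which the members were not selected, 801 K27-K4 regions (2.21%), 410 K4-K27 regions (1.67%), 134 total H3K4me3 regions (0.61%) and 1 total H3K27me3 region held a string. The study's methods describe peak calling per replicate with EPIC2 but do not state how the deposited regions were drawn. The E14 reChIP regions were wider (medians of 2400 bp in K27-K4 and 3000 bp in K4-K27) than those of the WT clones (900 and 1350 bp).

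**Figure D1:**
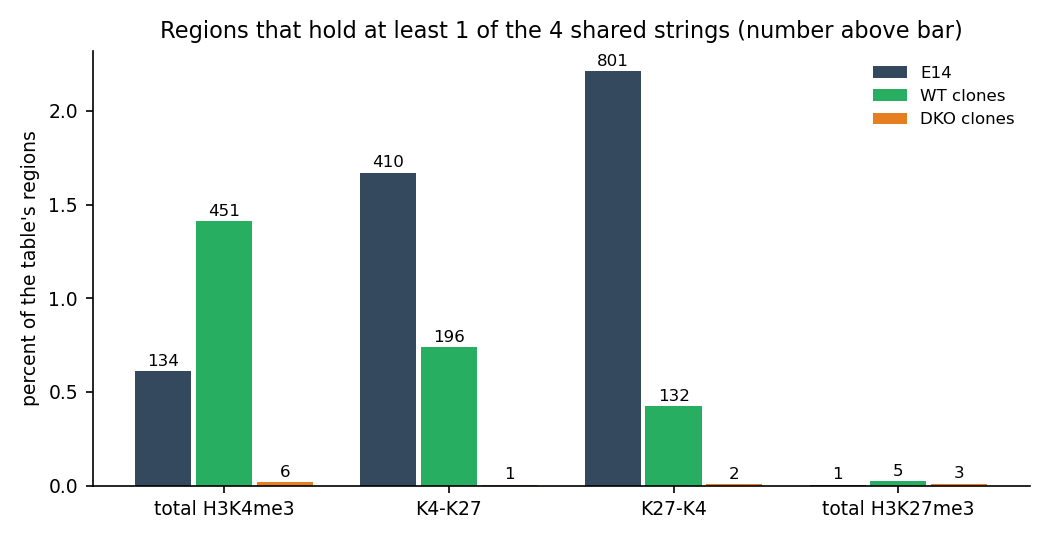
Percent of regions with at least 1 of the 4 shared strings, in each of the 12 deposited tables of regions, with the number of such regions above each bar. The WT clone total H3K4me3 table stands at 1.41% and the DKO clone table at 0.0177%, and the highest share is that of E14 K27-K4 at 2.21%.

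Over the members, median total H3K4me3 was 1.20 and 0.62 in WT clones 57 and 58 and fell to -1.29 and -1.12 in DKO clones 43 and 53. These medians stand for 25 and 14 reads in WT and 6 and 6 in DKO. The WT levels lay close to those of the other regions outside reChIP regions, 1.13 and 0.51, whose DKO levels were 0.73 and 0.49. In the IgG-IgG library of WT clone 57 the members had a median of -2.31, or 1 read, and 338 of the 683 had no IgG read. Of the members, 95.8% were over IgG by more than 1 in the total H3K4me3 library of clone 57 and 80.8% in that of clone 58, against 38.2% and 44.8% in DKO clones 43 and 53. The depth behind a member is thus low: 14 reads in clone 58 at the median, so single regions are known with wide counting error.

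**Figure D2:**
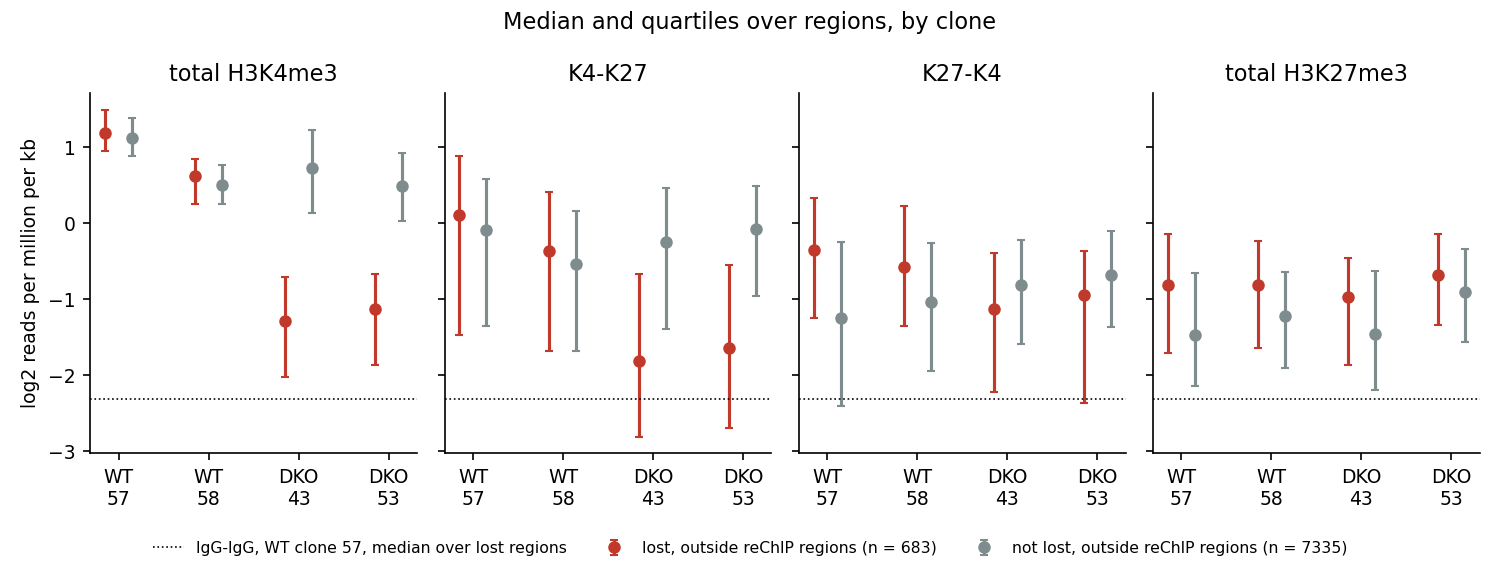
Log2 RPM per kb in each clone library, by ChIP, as the median (point) and quartiles (bar) over the 683 members in red and the 7335 other regions outside reChIP regions in grey, with the members' median in IgG-IgG of WT clone 57 as a dotted line. Total H3K4me3, on which the members were chosen, has WT medians of 1.20 and 0.62 and DKO medians of -1.29 and -1.12, and total H3K27me3 has medians between -0.97 and -0.68 in all 4 clones.

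The 90 members with the first string had WT total H3K4me3 medians of 1.29 and 0.07 and DKO medians of -2.61 and -2.18. Their gap had a median of 1.86, the median over all members was 1.40, and over the 182 members with at most 10% repeat-masked bases it was 1.30. A gap of 2 or more was found in 139 members (20.4%) and one of 3 or more in 22. Of the 12 members with the largest gaps, 9 held one of the 4 strings, and so did 35 of the first 50. At those 12 the DKO values rest on 0 or 1 read per library, so the size of their gap is set by the count floor, and several gaps tie.

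The 2 largest gaps of 4.24 among string members were at chr9:24328201-24328800, 174 kb from the Dpy19l1 start site, and chr4:81149251-81150000, 239 kb from that of Lurap1l. The chromosome 9 region had total H3K4me3 of 0.95 and 0.38 in WT (22 and 13 reads) and -4.18 and -3.86 in DKO (0 and 1 read). The chromosome 4 region had 1.30 and 0.05 in WT (35 and 13 reads) and -4.50 and -4.18 in DKO (0 and 1 read). IgG-IgG gave 7 and 6 reads at these regions.
Another region with a gap of 4.24, chr13:80563951-80564700, 319 kb from the start of the arrestin family gene Arrdc3, held no string and no IgG read. It had 33 and 13 reads of total H3K4me3 in WT and 1 and 1 in DKO. The other 9 of these 12 members were nearest to Ptchd1, Agbl4, Npy5r, Tlr4, 1700019F05Rik, Tanc2, Sytl5, Upp2 and Vmn1r2, at 51.6 to 441 kb from their start sites, with 12 to 42 reads in WT clone 57, 8 to 12 in clone 58 and at most 1 in either DKO clone. IgG-IgG gave 0 to 9 reads at these 9, with 9 at the Agbl4 region and 8 at those near Npy5r and Tlr4 and in Tanc2. Agbl4, Tanc2, Sytl5 and Upp2 hold their region in an intron. The genes range from the lipopolysaccharide receptor Tlr4 to the pheromone receptor Vmn1r2, and a nearest start site at such distances only places a region.

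The members were mostly far from start sites. Of the 683, 380 (55.6%) were intergenic, 174 (25.5%) intronic, 91 (13.3%) exonic and 38 (5.56%, exact binomial 95% interval 3.97 to 7.56%) within 1.5 kb of an annotated start site, the study's definition of a promoter. Of all regions, 44.8% were at promoters, and among the regions inside reChIP regions that met the gap 31.6% were. The regions outside reChIP regions that did not meet the gap were at promoters about as rarely as the members, at 6.54%, so a low promoter share goes with lying outside reChIP regions. The 2 sets differed in distance: the median to the nearest start site was 44.4 kb in members and 18.9 kb in the others outside, and 204 members (29.9%) lay beyond 100 kb against 9.01%. Intergenic position was also more frequent in members, 55.6% against 42.8%. Members with a string were the more remote, with a median distance of 96.7 kb, 139 of 184 (75.5%) intergenic and 0 at a promoter.

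**Figure D3:**
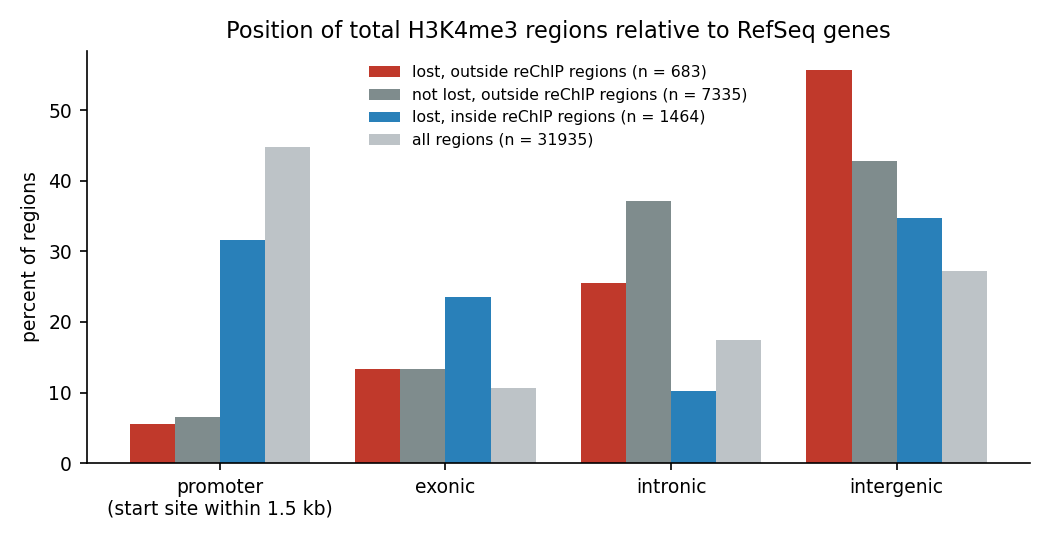
Percent of regions in each position class relative to annotated genes, as bars for the members, the other regions outside reChIP regions, the regions inside reChIP regions that met the gap and all regions. Members are intergenic in 55.6% of cases and at promoters in 5.56%, where 44.8% of all regions are at promoters.

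Members were scattered. Only 18 lay within 10 kb of another member and 61 within 100 kb, and the median distance to the next was 1091 kb. The share of regions outside reChIP regions that were members ran over the autosomes and X from 5.72% on chromosome 11 to 14.8% on chromosome X (0 of 2 on chromosome Y), with 12.6% on chromosome 16 and 11.9% on chromosome 13. They were also narrow, with a median width of 600 bp (quartiles 450 and 900 bp, range 300 to 3000 bp) against 900 bp in the others outside, 1200 bp in the regions inside reChIP regions that met the gap and 1650 bp over the table. Exactly 300 bp, the smallest width in the table, was the width of 159 members (23.3%), against 11.2% of the others outside and 4.10% of all regions. Together they cover 479.7 kb.

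The widest members rested on more reads than those of largest gap. The widest, chr5:110376751-110379750, spans 3000 bp and overlaps an exon of Fbrsl1, a gene of the Auts2 family, 7.38 kb from its start. Its total H3K4me3 was 2.37 and 1.08 in WT and -0.05 and -0.01 in DKO, from 294, 106, 79 and 72 reads. Other wide members were at the collagen receptor gene Ddr1, between genes near Wdr38 and 4930524B15Rik, and at the kinase gene Tyk2. These 5 had gaps of 1.02 to 1.51, with 32 to 79 reads in each DKO clone, and none of them held a string. IgG-IgG of WT clone 57 gave 25 to 55 reads at these regions. DKO total H3K4me3 lay below the IgG-IgG level at Ddr1 and Tyk2 and near Wdr38 and 4930524B15Rik. Near Wdr38 it was -0.76 and -0.18 against 0.71, and at Fbrsl1 it was close to the IgG-IgG level of -0.23.

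Members had more CpG than the other regions outside reChIP regions and less than the regions inside reChIP regions that met the gap. The median observed to expected CpG ratio was 0.38, against 0.25 in the others outside, 0.47 in the regions inside reChIP regions that met the gap and 0.40 over the table. A ratio over 0.6, as in CpG islands, was found in 38 members (5.56%) against 0.995%, 14.8% and 19.2%. Repeat-masked bases made up a median of 28.1% of a member against 16.8%, 10.5% and 13.6%. More than 90% of the bases were repeat-masked in 105 members (15.4%) against 0.382%, 6.08% and 0.745%, and 84 of those 105 held a string. At the other end, 182 members (26.6%) were at most 10% repeat-masked, against 29.2% of the others outside. Members thus include both nearly pure repeat copies and a larger number of regions with little repeat.

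Of 9 short letter strings looked for on both strands in the central 300 bases of each region, AAGATGGC, the core recognised by YY1, stood out most. It was in 78 members (11.4%), against 2.17% of the others outside, 3.76% of the regions inside reChIP regions that met the gap and 2.41% of all regions of the table. Of those 78, 51 also held one of the shared strings, and the printed sequence near Npy5r contains it. CGCGCG was in 4.69% of members against 1.08%, 13.1% and 10.1%, and the octamer ATGCAAAT of POU factors in 0.878% against 1.91%, 0.478% and 1.27%. Such matches describe the sequence and are not evidence of binding.

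**Figure D4:**
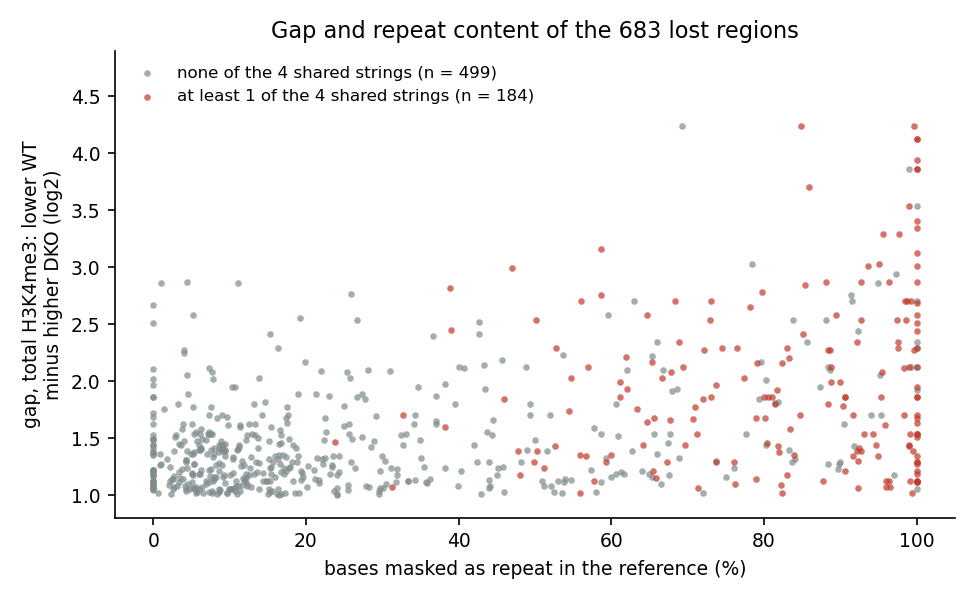
Gap in total H3K4me3 (log2) of each member against its percent of repeat-masked bases, 1 point per member, with the 184 members that hold a shared string in red. Members with over 90% repeat have a median gap of 1.86 and those with at most 10% repeat one of 1.30, and the gap starts at 1 by the rule.

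The K27-K4 reChIP starts from a separate H3K27me3 precipitation, so its values were not used in the gap, although members had to be absent from its tables of regions. Members were tested in a limma fit over all 31935 regions, and a call needed a difference over 1 and a Benjamini-Hochberg adjusted p under 0.05. K27-K4 signal was lower in DKO in 72 members (10.5%), where 5.50% of all regions were called lower, and higher in 5 members (0.732%), where 1.09% were called higher. The median difference over members was -0.57, over all regions 0.07 and over the other regions outside reChIP regions 0.36, of which 0.791% were called lower. Both DKO clones lay below both WT clones at 274 members (40.1%; 19.9% of all regions) and above both at 67 (9.81%; 22.9% of all regions). The regions inside reChIP regions that met the gap had a median of -2.04, with 1001 of 1464 (68.4%) called lower, but 1234 of them are in the WT K27-K4 table and 294 in the DKO one, so that set was itself drawn in part on K27-K4. Median K27-K4 levels over members were -0.36 and -0.58 in WT and -1.13 and -0.95 in DKO, from 5 to 8 reads. In WT they lay above those of the other regions outside reChIP regions (-1.25 and -1.03), and in DKO below them (-0.81 and -0.68).
The 184 members with a string had a median difference of -1.36, with 26 (14.1%) called lower, and the 499 without one had -0.37, with 46 (9.22%) called lower. The share of members called, in either direction, exceeds that of all regions in some fits only. It was 11.3% (77 members) against 6.59% in the fit used here, but 4.98% (34) against 5.71% with quantile normalisation, 2.49% (17) against 3.95% with all 4 ChIPs in 1 fit and 7.47% (51) against 8.53% without WT clone 57. It was 18.3% (125) against 14.7% without WT clone 58, 3.95% (27) against 2.49% without DKO clone 43 and 5.56% (38) against 2.82% without DKO clone 53, and with plain eBayes variances 0 members and 0 of all regions were called.

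The 6 called members with the largest falls in K27-K4 were repeat-rich and intergenic or intronic. The region chr3:63676801-63677250, 174 kb from Plch1, a phospholipase C gene, holds the first string. Its K27-K4 level was 0.97 and 0.52 in WT (14 and 11 reads) and -3.54 and -3.10 in DKO (no read in either), a difference of -4.07 ± 0.88 (SE, limma, adjusted p = 0.00017), with no IgG read.
The largest fall, -4.19 ± 1.13 (SE, limma, adjusted p = 0.0054), was at chr3:55976851-55977750 in an intron of Nbea, with 14 and 16 reads in WT and 1 and 1 in DKO. That region had 11 IgG reads, near its WT reChIP counts. The other 4 were at chr3:18852601-18853350 near Gm30789, chr7:33998851-33999900 near Scgb2b27, chrX:150019801-150020100 near Gm15091 and chr16:27087601-27087900 near Gmnc, a geminin family gene of multiciliated cells. They fell by 3.50 to 3.77 with limma adjusted p from 0.00022 to 0.021, and each kept at most 2 reads per DKO clone. IgG reads at these 4 numbered 0 to 11. With a clone left out, the calls near Plch1 and Gm15091 held in all 4 fits, whereas those in Nbea and near Scgb2b27 and Gm30789 were lost without DKO clone 43, and those near Scgb2b27, Gm30789 and Gmnc without WT clone 57, that near Gm30789 also without DKO clone 53.

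The 3 called rises of largest size were in genes. The intronic region chr1:34133101-34133400 of Dst, which encodes the cytolinker dystonin, had 0 and 0 reads of K27-K4 in WT and 5 and 11 in DKO, a difference of 2.76 ± 0.80 (SE, limma, adjusted p = 0.012). The promoter region chr1:88102801-88103100 of Ugt1a6b, a glucuronosyltransferase gene, rose by 2.25 ± 0.68 (SE, limma, adjusted p = 0.020), and an exonic region of Grip1, chr10:119978251-119978850, rose by 2.09 ± 0.67 (SE, limma, adjusted p = 0.035). At these 3 the total H3K4me3 fell and the K27-K4 signal rose, from 0 to 9 reads in each WT clone to 5 to 20 in each DKO clone. All 3 calls were lost without DKO clone 43 and without DKO clone 53, and the Grip1 difference was 0.55 without WT clone 57, where its call was also lost, and 3.62 without WT clone 58.

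**Figure D5:**
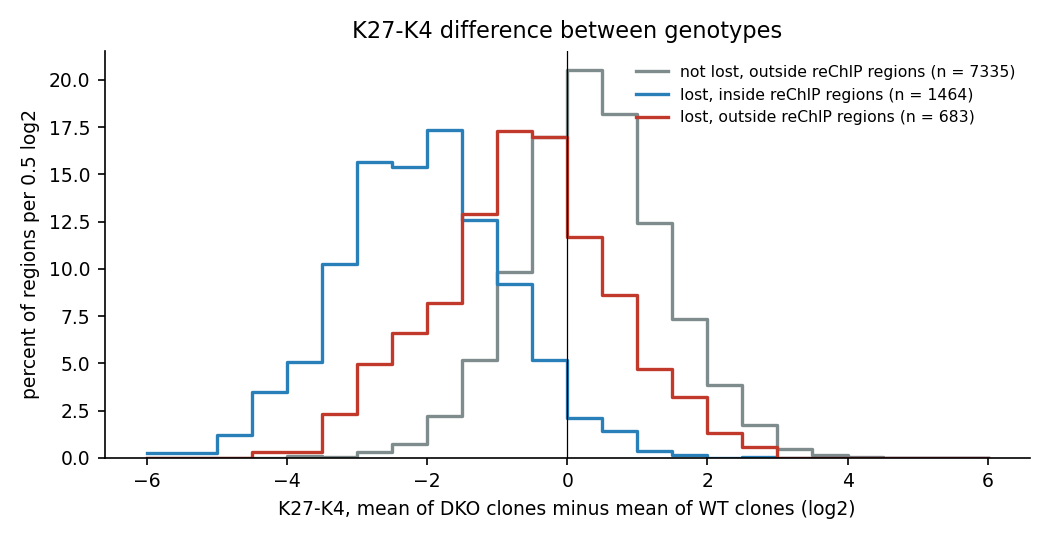
Percent of regions in each step of 0.5 of the K27-K4 difference, mean of the DKO clones minus mean of the WT clones in log2 RPM per kb, for members, the other regions outside reChIP regions and the regions inside reChIP regions that met the gap. The medians are -0.57, 0.36 and -2.04.

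The K4-K27 reChIP shares its first precipitation with the total H3K4me3 on which members were selected, so its differences are not independent of the choice. The median over members was -1.29 and over all regions 0.00032. Both DKO clones lay below both WT clones at 309 members (45.2%; 17.5% of all regions) and above both at 24 (3.51%; 17.0% of all regions). Only 6 members (0.878%) were called lower, against 3.03% of all regions, and 0 higher, against 0.291%. At an unadjusted p under 0.05 in limma, 122 members (17.9%) were lower and 4 (0.586%) higher, against 7.72% and 3.64% of all regions. With 1 read at the median in DKO clone 43 and 3 in clone 53, and no read at 305 and 212 members, the DKO values of most members rest on a few reads. The comparison turns with the variance model: plain eBayes called 131 members (19.2%) against 5.44% of all regions. Without WT clone 57, WT clone 58 and DKO clone 43, 0, 3 and 2 members were called, against 2.55%, 2.65% and 1.46% of all regions.

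All 6 called members fell, and those named here were chosen after their values were seen. The smallest adjusted p was that of chr13:30991351-30992400, an intergenic region with no repeat-masked base 17.3 kb from Exoc2, an exocyst subunit gene. Its K4-K27 level was 2.31 and 1.68 in WT (48 and 36 reads) and -3.62 and -0.07 in DKO (0 and 13 reads), a difference of -3.84 ± 0.90 (SE, limma, adjusted p = 0.0015). Its K27-K4 level was 2.13 and 1.62 in WT and -0.09 and -0.58 in DKO, a difference of -2.21 ± 0.43 (SE, limma, adjusted p = 1.3e-05).
Total H3K4me3 was 2.47 and 1.00 in WT and -2.25 and -1.67 in DKO there, as the rule required, and IgG-IgG gave 23 reads. The K4-K27 call was lost without either WT clone and without DKO clone 43, where the difference was -2.06. The exonic region chr2:118430251-118431600 of Eif2ak4, the gene of the stress kinase GCN2, was called lower in both reChIPs as well, by -4.61 ± 1.39 (SE, limma, adjusted p = 0.031) in K4-K27 and -2.03 ± 0.56 (SE, limma, adjusted p = 0.0066) in K27-K4. IgG-IgG gave 37 reads there, a level of 0.88. The WT K27-K4 levels of 0.67 and 0.65 (34 and 36 reads) were below that, and WT K4-K27 was 2.03 and 0.67. Intergenic regions near Slc35f1 and E530001F21Rik were also called lower, with differences of -4.87 and -4.64. Those 2 calls and that in Eif2ak4 were lost without either WT clone, and that in Eif2ak4 also without DKO clone 43.

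Total H3K27me3, a separate precipitation, had a median difference of -0.05 over the members, against 0.08 over all regions and -0.70 at the regions inside reChIP regions that met the gap. Calls numbered 5 lower (0.732%; 1.14% of all regions) and 7 higher (1.02%; 0.410% of all regions). Both DKO clones lay below both WT clones at 141 members (20.6%; 13.7% of all regions) and above at 127 (18.6%; 22.1% of all regions). Medians over members were -0.81 and -0.81 in WT and -0.97 and -0.68 in DKO, above those of the other regions outside reChIP regions (-1.47 and -1.23 in WT, -1.46 and -0.90 in DKO) and of all regions in WT (-1.04 and -1.03). The members' median excess over IgG-IgG was 1.02 and 1.09 in WT, against 0.18 and 0.20 for the others outside. An H3K27me3 region of either genotype overlapped 36 members (5.27%), against 2.64% of the others outside and 22.0% of the table. The sign of the median turned to 0.13 without DKO clone 43. Calls numbered 12 in all (1.76%) against 1.55% of all regions here, 2 (0.293%) against 0.936% with quantile normalisation, 0 against 0.191% with 1 fit, 17 (2.49%) against 3.17% without WT clone 58, 26 (3.81%) against 3.57% without WT clone 57, 1 (0.146%) against 0.0752% without DKO clone 43, and 0 of either with plain eBayes.

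Among the members called in total H3K27me3, the rise of smallest adjusted p was at chr10:117169651-117169950, 21.2 kb from Frs2, an adaptor of FGF receptors. The level was -1.47 and -1.23 in WT (2 and 2 reads) and 0.87 and 0.83 in DKO (10 and 18 reads), a difference of 2.19 ± 0.43 (SE, limma, adjusted p = 0.00015). An intronic region of the diacylglycerol kinase gene Dgkd, chr1:87877351-87877650, rose by 2.14 ± 0.50 (SE, limma, adjusted p = 0.0031), and chr3:57700051-57700800 near Ankub1 by 2.22 ± 0.64 (SE, limma, adjusted p = 0.038).
The 5 called falls were at an intron of Cct8, a chaperonin subunit gene, at an exon of Lyst, a lysosomal trafficking gene, and between genes near C330011F03Rik, Gm10636 and Sult1c1. The region near the sulfotransferase gene Sult1c1, chr17:53936851-53937150, had 6 and 7 reads in WT and 1 and 5 in DKO, a difference of -2.09 ± 0.48 (SE, limma, adjusted p = 0.0024), and was called lower in K27-K4 as well. IgG-IgG gave 6 reads there (0.42), near the WT levels of 0.12 and 0.58 in total H3K27me3 and 0.92 and 0.23 in K27-K4. It gave 8 reads near Gm10636 and 9 near Ankub1, where the DKO levels of -0.46 and -0.86 lay below the IgG-IgG level of -0.31. At the other regions named for this mark IgG-IgG gave no read. All 8 named H3K27me3 calls rest on 0 to 18 reads per library, and each was lost when at least 1 of the 4 clones was left out. Without DKO clone 43 the difference near Sult1c1 was -1.37 and that near Gm10636 -1.05, that near Gm10636 was -3.49 and that in Lyst -0.99 without DKO clone 53, and that near Ankub1 was 1.31 without WT clone 57. The Frs2 call was lost without DKO clone 43.

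The 38 members at promoters belonged to 38 genes, and the start site itself lay inside the region in 18. Their nearest genes include Ctsg (cathepsin G), Itgam (an integrin of myeloid cells), Dock2 (a guanine nucleotide exchange factor of blood cells), Nlrp14 (an oocyte gene) and Cyct (testis cytochrome c), named after their values were seen. The Ctsg region had total H3K4me3 of 1.14 and 0.13 in WT and -2.44 and -2.86 in DKO, the largest gap at a promoter, 2.58.
K27-K4 was called lower at 6 of the 38 (15.8%; 5.50% of all regions), Gm13884, Gm4971, Naalad2, Pamr1, Cyct and Mir3473c, and higher at Ugt1a6b. At Pamr1, which encodes a secreted protein with a peptidase domain, K27-K4 was 2.25 and 1.57 in WT and -0.37 and -0.17 in DKO, a difference of -2.17 ± 0.42 (SE, limma, adjusted p = 1.9e-05). At the Naalad2 promoter printed above it was 1.92 and 0.81 in WT and 0.00 and -0.36 in DKO, a difference of -1.55 ± 0.43 (SE, limma, adjusted p = 0.0081). In both, the 2 genotypes did not overlap.

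Of the gene lists looked at, only 1 gene had a member at its promoter. Tdpoz2, one of the 31 genes listed for the 2-cell stage embryo, has the member chr3:93653851-93654150 at 1165 bp from its start, with total H3K4me3 of 0.95 and 1.26 in WT and -0.22 and -0.54 in DKO and a gap of 1.17. It was the only gene of that list with a region of the table at its promoter. Of the 39 germline genes, 18 had such a region and 6 met the gap, Ddx4, Nobox, Rpl10l, Sohlh2, Spo11 and Tdrd6, all 6 inside reChIP regions. Of all promoter regions of the table, 3.50% met the gap. Mest and Nap1l5, 2 of 26 imprinted genes with a region, met the gap inside reChIP regions too, and of the pluripotency factor genes (19 with a region) and DNA methylation genes (10) 0 met it. Of 10 groups of gene names counted, olfactory receptor genes (Olfr) were nearest to 9 members (1.32%; 0.235% of the table) and vomeronasal receptor genes of the Vmn2r family to 5 (0.732%; 0.0626% of the table), whereas zinc finger genes named Zfp were nearest to 7 (1.02%; 2.08% of the table) and solute carrier genes (Slc) to 11 (1.61%; 1.83% of the table). Genes with a Gm name were nearest to 63 (9.22%; 5.94% of the table) and those with a Rik name to 62 (9.08%; 6.20% of the table), and the other 4 groups to at most 1 member each.

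Other tables bear on the members by overlap of at least 1 bp. None of the 683 overlapped a DKO total H3K4me3 region (a count of 0 allows up to 0.439%), which follows nearly from the rule, whereas 59.4% of the others outside did. In E14 ESCs, 99 members (14.5%) overlapped a total H3K4me3 region against 18.6% of the others outside, 335 (49.0%) a K27-K4 region against 26.3% and 154 (22.5%) a K4-K27 region against 10.5%, and 6 an H3K27me3 region. In the 335 E14 K27-K4 regions, that reChIP exceeded E14 IgG-IgG by 1.13 and 1.96 at the median in replicates 1 and 2, total H3K4me3 by 0.69 and 0.90 and K4-K27 by 0.35 and 1.26, and total H3K27me3 differed from it by 0.11 and -0.10. Members that overlapped either E14 reChIP table (342) had a K27-K4 difference between the clones of -0.96 at the median, with 55 (16.1%) called lower, and the other 341 had -0.23, with 17 (4.99%) called lower, against 5.50% of all regions.

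Around the threshold of 1 the regions looked alike. Just inside were an exonic region of the myosin gene Myh10, chr11:68782801-68783850, the Grip1 region named above, and an intronic region of the autophagy gene Atg10, chr13:91169551-91170450, with gaps of 1.00, 1.00 and 1.01. Just outside were chr4:73839451-73839900, chr6:82904701-82905150 and chr5:141043501-141044850, with gaps of 0.996, 0.996 and 0.997. Myh10 had 42 and 29 reads in WT and 21 and 21 in DKO, and the chromosome 5 region 80 and 38 in WT and 31 and 25 in DKO. With a clone left out, the rule chose 811 regions without WT clone 57, 1890 without WT clone 58, 1121 without DKO clone 43 and 1174 without DKO clone 53. Because it takes the lower WT and the higher DKO value, these counts could only stay the same or rise.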

How the data were processed

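Libraries were trimmed with Trim Galore 0.6.6 and mapped to mm10 with BWA 0.7.13, per the submitters' processing notes, and the authors computed log2 RPM per kb of region in SeqMonk from primary alignments with a mapping quality over 20, keeping duplicates and extending reads by 200 bp. These deposited log2 values are not corrected for IgG. Of the per-sample columns, 32 belong to no sample analysed here and were not used. The regions and gene lists were chosen with earlier results of these data known.

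All regions of the WT clone total H3K4me3 table were fitted with limma 3.58.1 (R 4.3.3; trended, robust eBayes; genotype only), in place of the study's count test, since the values are log2. On simulated data with 200 of 31935 regions shifted by 3, the step recovered 68.0% for K27-K4, 45.5% for K4-K27 and 77.0% for total H3K27me3. Start sites, repeat masking and sequence came from the RefSeq reference of the same build (GRCm38). Named regions were the 12 of largest gap, the 6 largest called falls and 3 largest called rises in K27-K4 and in total H3K27me3 (or all called if fewer), the 6 widest, 3 on each side of the threshold, list genes with a promoter member, and members within 10 kb of loci the study names, of which there were 0. A few regions that this rule or a call would name are not reported here. Alternatives covered scaling, filters, variance models, thresholds, definitions and each clone left out.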

Additional observations from a re-analysis of the deposited data

How the results depend on the processing

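No paired analysis was possible because the WT and DKO clones share no replicate number. The cause of these shifts was not tested. Members called in K27-K4 (77) became 50 with median centring, 34 with quantile normalisation, 51 without the lowest quartile, 0 with plain eBayes, 17 with all 4 ChIPs in 1 fit, and 27 to 125 with a clone left out, and their share fell below that of all regions with quantile normalisation (4.98% against 5.71%), with 1 fit (2.49% against 3.95%) and without WT clone 57 (7.47% against 8.53%). The median K27-K4 difference (-0.57) was -0.83 with quantile normalisation and ranged with a clone left out from -0.78 to -0.50. Members called in K4-K27 (6) became 16, 1, 131 and 131 with median centring, quantile normalisation, plain eBayes and 1 fit, and 0 to 5 with a clone left out, and the median (-1.29) was -0.77 without the lowest quartile. Members called in total H3K27me3 (12) became 2, 0 and 0 with quantile normalisation, plain eBayes and 1 fit, and 1 to 26 with a clone left out, where the median (-0.05) ran from -0.17 to 0.13. Regions of the whole table called lower in total H3K4me3 (829) became 3477 with median centring, 133 without the lowest quartile, 1802 with plain eBayes and 0 to 3626 with a clone left out. The number of members (683) was 1527, 287 and 139 at gaps of 0.5, 1.5 and 2, and 341 with E14 reChIP regions also left out. It was 811 to 1890 with a clone left out, where by the form of the rule it could not fall. The promoter share (5.56%) was 9.96% within 5 kb, 3.66% from 1 kb upstream to 100 bp downstream, and 2.16% at a gap of 2. The share with a shared string (26.9%) was 20.5% with strings of 30 letters and 29.4% with 16, but with 16, where 1 string is a dinucleotide repeat, 8.79% of the others outside held one and 10.9% of all regions with one met the gap, and the CpG ratio (0.38) was 0.41 in the central 300 bases and 0.46 at a gap of 2. Of 197 alternative values for 23 named results, 104 kept the call, 93 lost it and 0 changed direction. These 23 results were picked among called members. Fits that changed only the variance model, or left out the lowest quartile, keep the difference itself, so its direction could not change there. Depth limits members most in K4-K27 of the DKO clones, with medians of 1 and 3 reads.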
